A study of Mus musculus with 25 samples.

Results

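The genes examined here were Nacc2, Cdkl1, Frmpd3, Crybb1, Rtl8b, Sra1, Slc30a9 and Vwa7, 8 genes of the mouse left ventricle picked from the smallest p-values for a high-fat, high-sucrose (HFHS) diet. They were grouped as genes little studied in this organ, which no value here addresses. They are 8 of the 11983 genes tested and of the 35969 genes to which a listed transcript could be matched. All 8 passed the filter on low values, a mean of at least 1 scaled TPM over the 25 mice. TPM is transcript abundance corrected for transcript length and expressed as a share of 1000000 per library, and scaled TPM is the sum over a gene's transcripts divided by one factor per library.

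The study set GPx4+/- mice, heterozygous for loss of glutathione peroxidase 4, the enzyme that reduces lipid hydroperoxides, beside WT littermates. All were male mice of a colony kept by backcross to C57BL6/J, 8 to 10 weeks old when the diets began, and their hearts were taken after 16 weeks. WT CNTL and GPx4+/- CNTL mice ate normal chow, WT HFHS and GPx4+/- HFHS mice ate the HFHS diet, and WT HFHS + Carnosine mice ate the HFHS diet and drank 80 mM carnosine from week 7. Each of the 5 groups held 5 mice, and polyA RNA was sequenced from each, of left ventricle by the labels' extraction protocol and of heart by their titles. GPx4+/- HFHS mice given carnosine were not analysed here, and the labels do not say which mice received dextrose before the heart was taken.

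The genotype labels held in the data, since Gpx4 was lower in every GPx4+/- mouse (250 to 382 scaled TPM) than in every WT mouse (590.0 to 777 scaled TPM). Cardiomyocyte markers (Myh6, Tnnt2, Tnni3, Actc1, Myl2, Myl3, Ryr2 and Pln) were all present, with a summed level of 44330 to 55430 scaled TPM per mouse. Some mice stood apart in markers of other tissue. The atrial list reached 4755 in a WT CNTL mouse, 7586 in a GPx4+/- CNTL mouse and 2812 in a GPx4+/- HFHS mouse against group medians of 71.9 to 279, and the hepatocyte list reached 1325 in a GPx4+/- CNTL mouse. Of 11 marker lists, 0 had sums that separated the HFHS from the CNTL mice in WT and 0 did in GPx4+/-, but some moved with diet in part. Atrial sums were 65.0, 71.8, 71.9, 159 and 2812 in GPx4+/- HFHS and at least 164 in GPx4+/- CNTL mice. In WT the median of the endocardium and vein list was 57.8 on CNTL and 91.1 on HFHS, that of smooth muscle 234 and 313 (with one HFHS mouse at 673), and that of macrophages 65.3 and 82.4. The WT medians were 4.54 and 7.71 for glia and autonomic neurons and 54340 and 47040 for cardiomyocytes. They were 0.690 and 7.63 for adipocytes and 0.298 and 3.16 for mesothelium. In GPx4+/- the medians of adipocytes and mesothelium went the other way, with 1.49 on CNTL and 0.682 on HFHS for mesothelium. The GPx4+/- medians were 6.07 and 6.37 for glia and autonomic neurons and 49940 and 48930 for cardiomyocytes. They were 60.2 and 67.1 for endocardium and vein, 226 and 261 for smooth muscle, and 72.1 and 85.7 for macrophages. Of the mesothelium list 0 of 5 genes and of the adipocyte list 2 of 8 passed the filter on low values. Their part in the diet differences below was not tested. In bulk tissue, fewer cells of a type and less RNA per cell cannot be told apart.

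The 8 genes have little in common by function. Nacc2 is a nuclear BTB and BEN domain protein that represses transcription together with the NuRD histone deacetylase complex. Sra1, the steroid receptor RNA activator, is known both as an RNA that assists nuclear receptors and as a small protein made from the same locus. Cdkl1 is a protein kinase related to the cyclin-dependent kinases, in a family linked to the primary cilium. Frmpd3 has FERM and PDZ domains, modules that tie membrane proteins to the cytoskeleton. Crybb1 encodes a beta-crystallin, best known as a structural protein of the eye lens. Rtl8b descends from the Gag gene of an ancient retrotransposon and now serves as a host gene on the X chromosome. Slc30a9 encodes the zinc transporter ZnT9, which is known to work in mitochondria, and Vwa7 encodes a von Willebrand factor A domain protein from the class III region of the major histocompatibility complex.

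The members were chosen on measured values. In a limma fit of the 20 mice without carnosine, Frmpd3, Crybb1, Cdkl1, Rtl8b and Sra1 had the 5 smallest p-values for diet in WT mice, Slc30a9 and Vwa7 were among the 5 smallest for diet in GPx4+/- mice, and Nacc2 and Cdkl1 were among the 5 smallest for diet over both genotypes. In WT the fifth gene was Sra1 with a log2 fold change of -0.40 and the sixth, just outside, was Dbi with 0.49. In GPx4+/- the fifth was Vwa7 with 0.52 and the sixth Fabp3 with 0.41, and over both genotypes the fifth was Cdkl1 with -0.88 and the sixth Crybb1 with 0.80. A contrast that chose a gene is therefore given below as a description with no test. Tests are given for a gene only in the genotype or comparison that did not choose it. Diet and carnosine tests used their own 10 mice, although the fit behind the choice had shared its estimate of spread across genotypes. The genotype tests, and the test of whether the Nacc2 diet difference varied with genotype, used the 20 mice without carnosine. They therefore share their estimate of spread with the choice.

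In the diet comparison, 5 of the 8 genes were higher on HFHS (Nacc2, Frmpd3, Crybb1, Slc30a9 and Vwa7) and 3 were lower (Cdkl1, Rtl8b and Sra1), with the same sign in WT and GPx4+/- mice. Frmpd3 averaged under 1 scaled TPM in both CNTL groups and passed the filter through its HFHS levels, so its diet difference is a description in both genotypes. Among the other genes that the contrast had not chosen, the HFHS and CNTL mice did not overlap for 3 of 3 in GPx4+/-, where 4.47% of all genes tested did not overlap, and for 1 of 2 in WT, where 4.51% did not. Over all 8 the counts were 8 in GPx4+/- and 7 in WT, which the choice fixes in part and from which nothing is read. Of these 3 genes, chosen on the diet difference in WT, Crybb1 rose and Sra1 fell in GPx4+/- mice at an adjusted p under 0.05 by limma, and Rtl8b did not pass, beside 1.03% of all genes called in that comparison. Of the 2 genes chosen on the diet difference in GPx4+/-, 0 passed in WT mice by limma, where 0.618% of all genes were called. Both had an unadjusted p under 0.05 there by limma, as did 2003 of all 11983 genes.

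**Figure D1:**
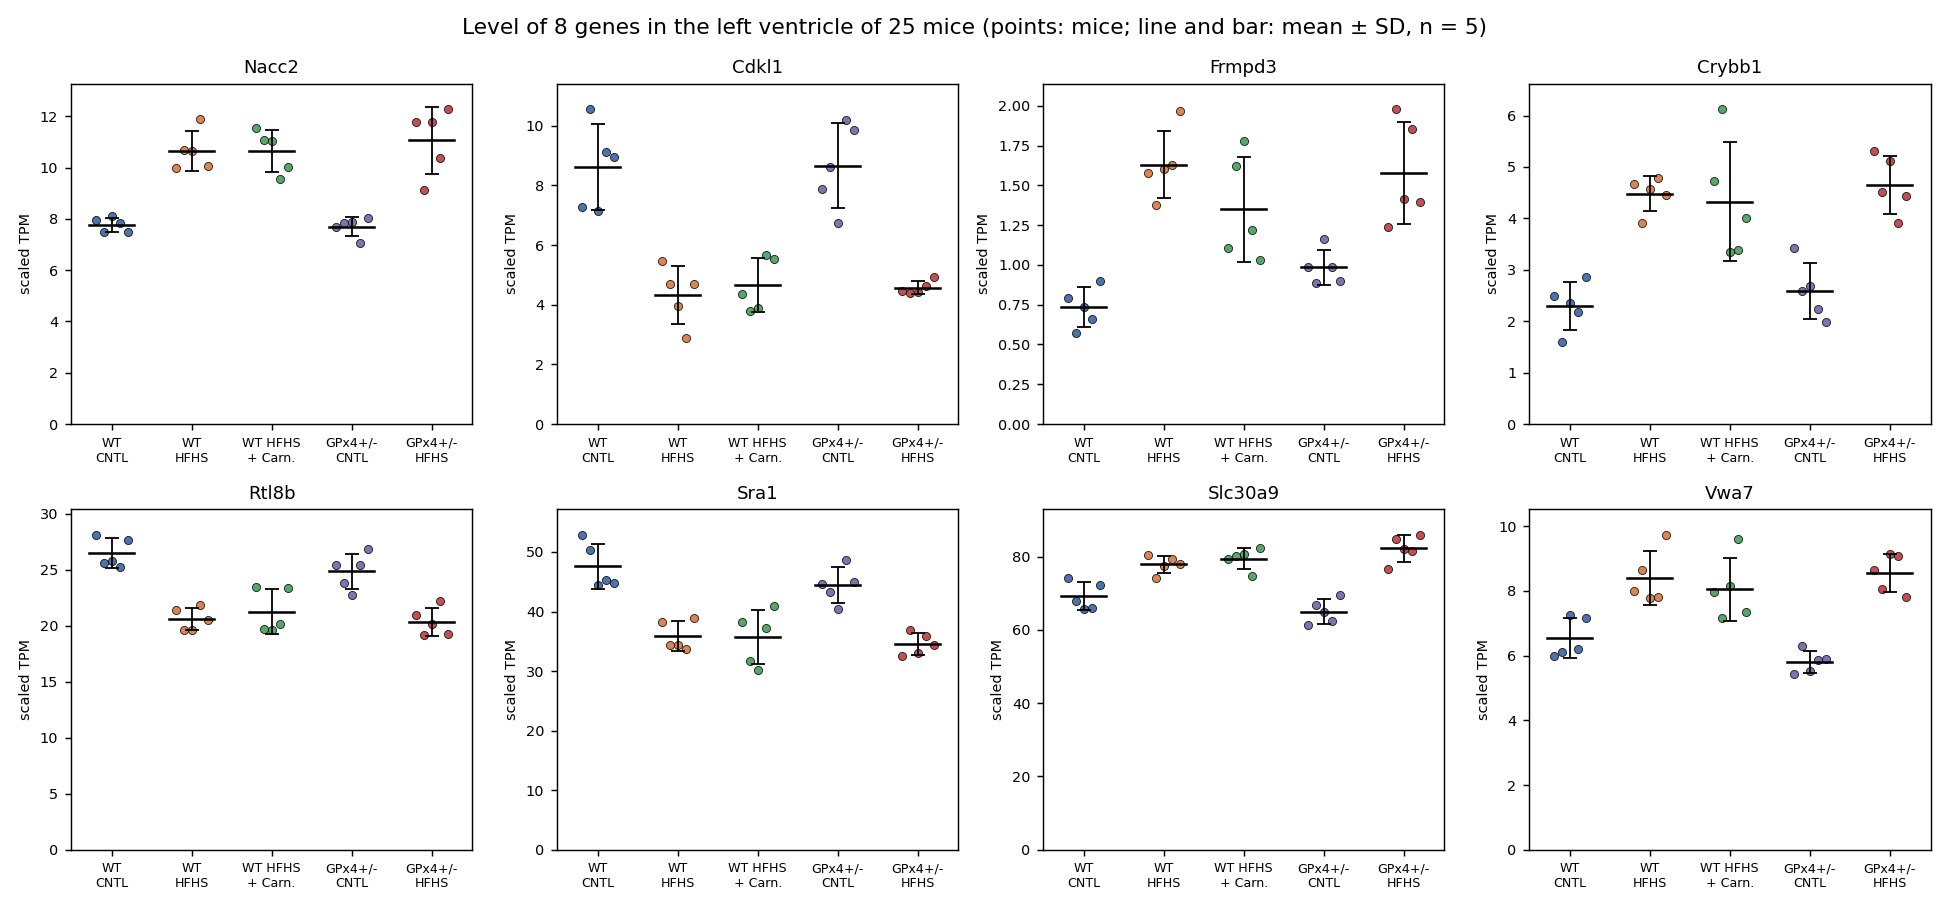
Scaled TPM (vertical axes, from 0) of the 8 genes in each of the 25 mice, in the 5 groups along the horizontal axes. Points are mice, and the line and bar are the mean ± SD of 5 mice. Cdkl1 lies between 6.74 and 10.6 in the CNTL mice of both genotypes and between 2.88 and 5.68 in all mice on the HFHS diet.

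Crybb1 lies on chromosome 5 (112255815 to 112269585, plus strand, GRCm38) and was a low to moderate gene in this tissue, with a mean of 3.67 scaled TPM at the 24.5th percentile of genes tested. The 5 WT CNTL mice had 2.48, 1.59, 2.35, 2.18 and 2.87 scaled TPM, and the 5 WT HFHS mice had 4.67, 3.91, 4.57, 4.78 and 4.46. Each HFHS mouse of the WT line was above each CNTL mouse, the means being 4.48 ± 0.338 and 2.29 ± 0.468 (SD, n = 5 each). In GPx4+/- mice, whose diet difference did not enter the choice, CNTL gave 3.42, 2.58, 2.69, 2.25 and 1.99 and HFHS gave 5.31, 4.51, 5.11, 3.91 and 4.43. These groups did not overlap either. The GPx4+/- mean rose from 2.59 to 4.66, a ratio of 1.80 and a log2 fold change of 0.75 (SE 0.124, adjusted p = 0.0261 by limma, exact permutation p = 0.00794, the smallest that 5 mice against 5 allow). The adjusted p ran from 0.00304 to 0.089 over 18 other settings and was under 0.05 in 11 of them. It was above 0.05 with no filter on low genes (0.089), without GPx4+/- CNTL mouse 4 (0.065) or 5 (0.0526) and without GPx4+/- HFHS mouse 1 (0.0648), 3 (0.0736) or 5 (0.0723). The log2 fold change was 0.68 to 0.84 with one mouse left out, 0.66 with TPM as deposited and 0.93 without the 6 mice with high markers of other tissue.

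Of Crybb1's 3 listed transcripts, Crybb1-201 (882 bases, protein coding) carried 97.2% of the TPM. The neighbouring gene also encodes a crystallin. Cryba4, beta-crystallin A4, starts 3302 bases from Crybb1 on the opposite strand, so that the pair is transcribed outward from the stretch between the starts. Cryba4 had 7.00, 6.76, 6.87, 6.18 and 8.00 scaled TPM in WT CNTL and 10.4, 8.10, 11.8, 11.2 and 12.3 in WT HFHS mice. It rose in WT by 0.58 on the log2 scale (SE 0.106, adjusted p = 0.0388 by limma), with no overlap of the groups. Crybb1 was chosen on these same WT mice, so the WT result of its neighbour may not be independent of that choice. In GPx4+/- its log2 fold change was 0.42 (SE 0.158, adjusted p = 0.223 by limma, exact permutation p = 0.0476), and the groups overlapped.

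The start regions of this crystallin pair are shown because both genes were higher on HFHS in WT mice. Each runs from 250 bases before to 50 bases after the RefSeq start (GRCm38.p6), with capitals marking matches to the 6 motifs listed further below. Crybb1 (chr5:112255570-112255869, plus strand) holds TATAAA, the TATA box, at 30 bases before its start and CCAAT at 19 bases after it. Cryba4 (chr5:112252469-112252768, minus strand) holds CCAAT and TGACCT.
Crybb1 promoter: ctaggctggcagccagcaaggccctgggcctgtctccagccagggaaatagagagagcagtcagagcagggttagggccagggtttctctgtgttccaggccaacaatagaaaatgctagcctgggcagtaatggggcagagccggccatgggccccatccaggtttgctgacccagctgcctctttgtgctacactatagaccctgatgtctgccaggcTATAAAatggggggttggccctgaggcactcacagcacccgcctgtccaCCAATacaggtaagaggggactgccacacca
Cryba4 promoter: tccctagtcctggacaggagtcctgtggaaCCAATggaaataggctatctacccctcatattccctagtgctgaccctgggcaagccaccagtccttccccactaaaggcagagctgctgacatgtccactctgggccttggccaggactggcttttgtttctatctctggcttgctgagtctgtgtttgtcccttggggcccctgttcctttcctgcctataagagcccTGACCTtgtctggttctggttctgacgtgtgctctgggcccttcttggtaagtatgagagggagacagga

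**Figure D2:**
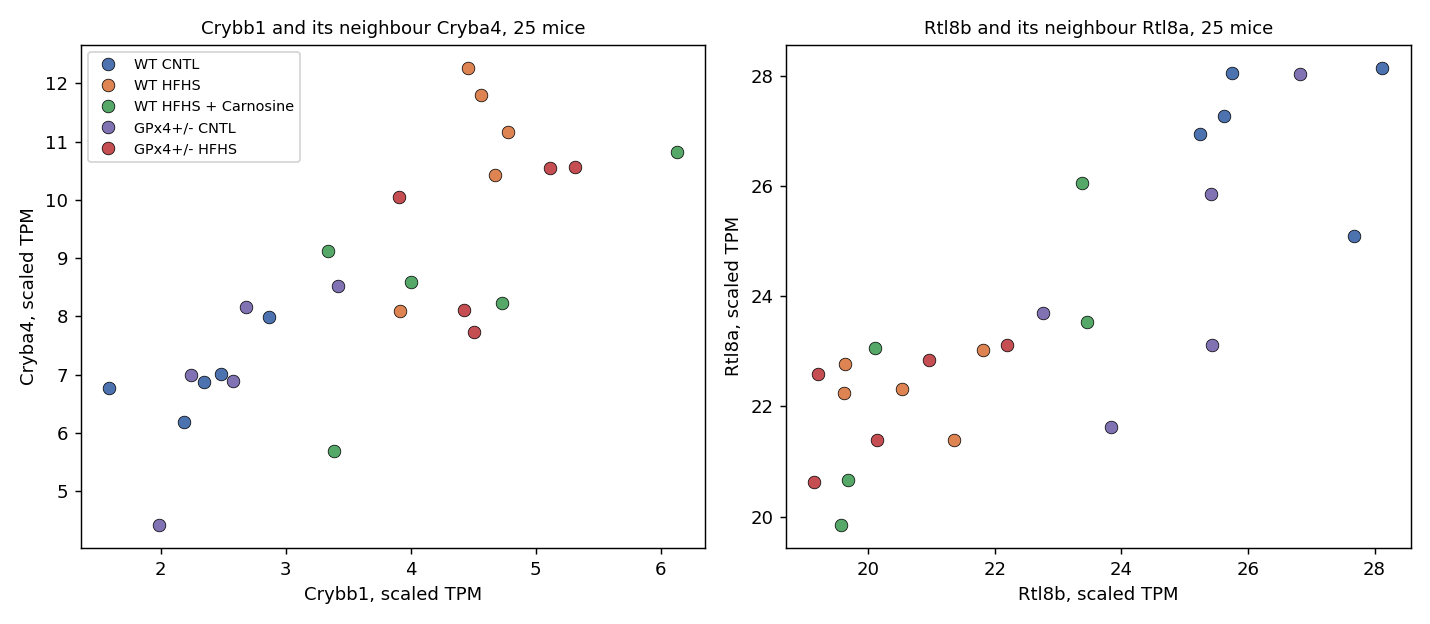
Scaled TPM of Crybb1 (horizontal) against Cryba4 (vertical), left, and of Rtl8b against Rtl8a, right, with one point per mouse coloured by group and axes that do not start at 0. The 10 CNTL mice lie at 3.42 or less on Crybb1, and the 5 WT HFHS mice lie at 8.10 or more on Cryba4.

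Among the 8 of 13 listed crystallins and small heat shock relatives that were tested, Cryba4 in WT was the single call, and in GPx4+/- and between genotypes there was none. Of the 8, 2 in WT and 2 in GPx4+/- had an unadjusted p under 0.05 for diet by limma, against 2003 and 1982 of all 11983 genes. Between genotypes 2 did, against 466 of all genes. The median log2 fold change of the list was 0.07 in WT and 0.13 in GPx4+/-, against 0.00 and -0.002 over all genes. Cryab, the abundant alpha-B crystallin chaperone of cardiac muscle, had log2 fold changes of -0.03 (SE 0.054) in WT and 0.10 (SE 0.089) in GPx4+/-, neither called (adjusted p = 0.80 and 0.625 by limma).

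Sra1 lies on chromosome 18 (36666681 to 36670815, minus strand) and was a well expressed gene, at 39.6 scaled TPM on average. WT CNTL mice had 52.9, 50.3, 44.5, 45.3 and 44.8 scaled TPM and WT HFHS mice 38.2, 34.3, 34.3, 33.7 and 38.9. GPx4+/- CNTL mice had 44.7, 43.2, 40.5, 48.7 and 45.0, and GPx4+/- HFHS mice 32.5, 37.0, 33.1, 35.9 and 34.3. In both genotypes each HFHS mouse was below each CNTL mouse. In GPx4+/- mice, whose diet difference did not choose it, Sra1 fell by 22.2%, a log2 fold change of -0.36 (SE 0.058, adjusted p = 0.0261 by limma, exact permutation p = 0.00794). Its adjusted p ran from 0.00402 to 0.105 over 19 other settings and was under 0.05 in 10. It was above 0.05 with no filter on low genes (0.0599), without GPx4+/- CNTL mouse 1 (0.0661), 4 (0.0545) or 5 (0.0526), without GPx4+/- HFHS mouse 1 (0.0648), 3 (0.0736) or 5 (0.0723), and without the 6 mice that stood apart in other-tissue markers (0.105), where the log2 fold change was -0.38. With one mouse left out it was -0.39 to -0.32.

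Most of the Sra1 signal did not come from its protein-coding transcripts. Sra1-203, a transcript of 871 bases annotated as a target of nonsense-mediated decay, carried 66.9% of the gene's TPM over the 25 mice, and the 3 protein-coding transcripts together carried 31.9%. In GPx4+/- mice the share of Sra1-203 was 71.0, 54.2, 53.2, 66.4 and 60.9% on CNTL and 74.7, 71.9, 74.0, 66.2 and 75.9% on HFHS. The means were 61.2 ± 7.69% and 72.5 ± 3.81% (SD, n = 5 each), a difference of 11.4 percentage points (two-sided exact permutation p = 0.0238, unadjusted, 1 of 5 such share comparisons), and the groups overlapped. In WT the mean share was 67.6% on CNTL and 67.6% on HFHS. The level of the main protein-coding transcript Sra1-201 in GPx4+/- mice was 11.0 ± 0.934 on CNTL and 7.72 ± 0.982 on HFHS, while that of Sra1-203 was 27.3 ± 4.83 and 25.0 ± 1.22 (scaled TPM, SD, n = 5 each). In WT, Sra1-201 was 11.2 ± 1.20 on CNTL and 9.07 ± 0.554 on HFHS, and Sra1-203 was 32.3 ± 5.05 and 24.4 ± 3.98. Another protein-coding transcript, Sra1-206, held 0.0, 18.9, 15.1, 5.0 and 12.9% of Sra1 in GPx4+/- CNTL mice. In GPx4+/- HFHS mice it held 0.0, 0.0, 0.0, 7.2 and 0.0%. The share of Sra1-201 ran from 22.1 to 28.1% in GPx4+/- CNTL and from 19.5 to 24.9% in GPx4+/- HFHS mice. Sra1-206 (760 bases) spans nearly the same stretch as Sra1-203 and was put at 0.0% in single mice of every group. The transcripts overlap on one strand, so the split of reads between them is an estimate.

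**Figure D3:**
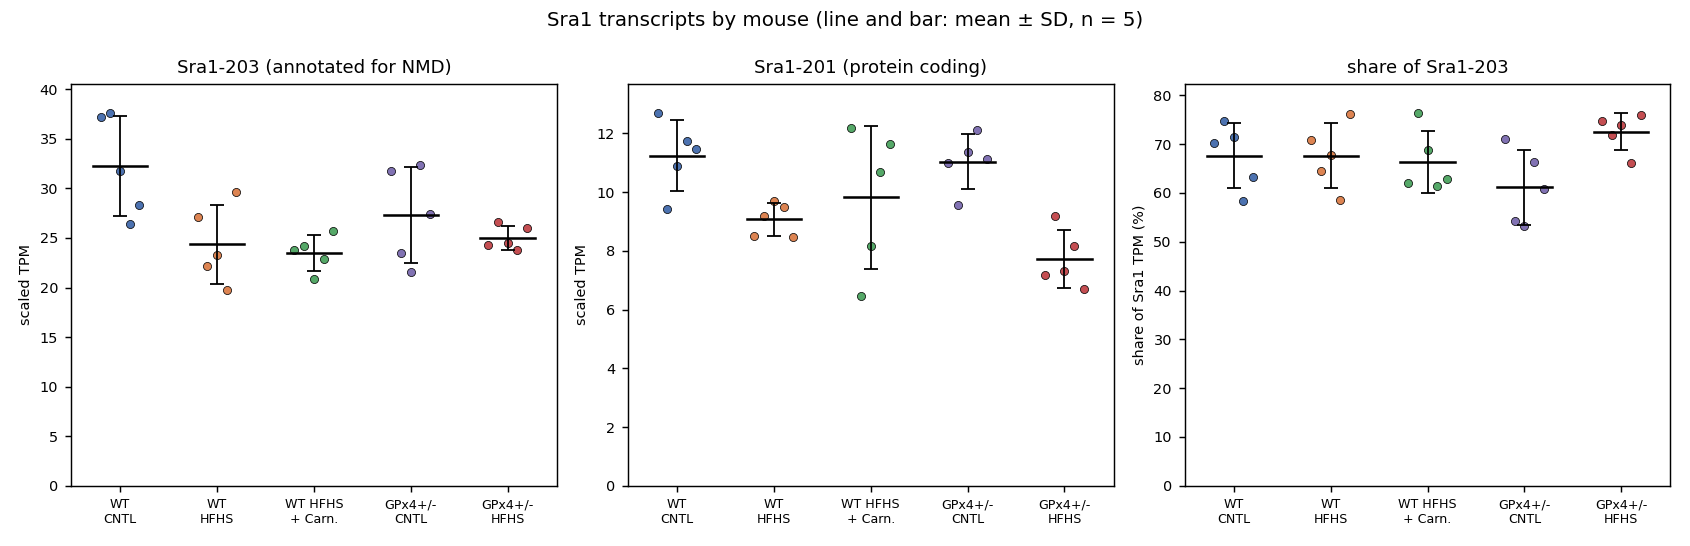
Scaled TPM of the Sra1 transcripts Sra1-203 (left) and Sra1-201 (middle), and the percent of Sra1 TPM in Sra1-203 (right), by group, with vertical axes from 0. Points are mice and bars the mean ± SD of 5. The Sra1-203 share runs from 53.2 to 71.0% in GPx4+/- CNTL mice and from 66.2 to 75.9% in GPx4+/- HFHS mice.

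Of 20 nuclear receptor coregulators and receptors listed beside Sra1 (among them Ncoa1, Ddx5, Spen, Slirp, Esrra and Ppara), all 20 were tested and 0 were called for diet in either genotype or between genotypes. In GPx4+/- their log2 fold changes ran from -0.29 (Ddx17, an RNA helicase) to 0.15 (Ppard, a lipid-sensing receptor), and in WT the lowest was -0.21 (Pus3, an enzyme that pseudouridylates RNA). The count at an unadjusted p under 0.05 was 1 in WT and 3 in GPx4+/-, against 2003 and 1982 of all 11983 genes.

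Rtl8b lies on the X chromosome (53669177 to 53670408, minus strand) as a single exon with one listed transcript, and averaged 22.7 scaled TPM. The WT CNTL values were 28.1, 25.6, 25.8, 25.3 and 27.7 scaled TPM, and those of WT HFHS were 21.4, 19.6, 19.6, 21.8 and 20.5. GPx4+/- CNTL mice had 25.4, 23.8, 22.8, 25.4 and 26.8, and GPx4+/- HFHS mice 21.0, 19.2, 20.1, 22.2 and 19.2. The diets did not overlap in either genotype. In GPx4+/- the mean was lower on HFHS by a percent change of -18.2%, with a log2 fold change of -0.28 (SE 0.060, adjusted p = 0.0533 by limma, exact permutation p = 0.00794). The adjusted p ran from 0.00665 to 0.13 over 19 other settings and was under 0.05 in 3.

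Rtl8b could not be told apart with certainty from its paralog Rtl8a, 25.5 kb away on the same strand. The Rtl8b transcript of 1232 bases matched that of Rtl8a at 99.6% over 1183 aligned bases, with 5 mismatches, and their coding sequences of 342 bases were identical. Of the 1202 words of 31 bases in Rtl8b, 85.1% also occur in Rtl8a and 3.0% in Rtl8c. A stretch of 120 coding bases is shown for Rtl8b (chrX:53670118-53670237, minus strand), which is the same in Rtl8a (chrX:53643441-53643560, minus strand), and for Rtl8c (chrX:53608104-53608223, plus strand), with capitals where Rtl8c differs from Rtl8b, 13 bases in all.
Rtl8b: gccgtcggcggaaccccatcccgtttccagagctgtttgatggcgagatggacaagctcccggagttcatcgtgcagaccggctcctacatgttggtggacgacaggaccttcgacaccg
Rtl8c: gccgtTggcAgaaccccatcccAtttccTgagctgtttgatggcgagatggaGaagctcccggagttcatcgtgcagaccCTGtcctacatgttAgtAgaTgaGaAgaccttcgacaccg

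Rtl8a was at a similar level. It had 28.2, 27.3, 28.1, 27.0 and 25.1 scaled TPM in WT CNTL and 21.4, 22.2, 22.8, 23.0 and 22.3 in WT HFHS mice, with no overlap. Its log2 fold change of -0.27 there is a description with no test, because Rtl8a shares reads with a gene chosen on the same mice. In GPx4+/- its log2 fold change was -0.14 (SE 0.070, adjusted p = 0.359 by limma), and the diets overlapped. The sum of Rtl8a and Rtl8b depends little on how reads were split between them, as their transcripts are of 1195 and 1232 bases. It was 48.5, 45.5, 46.5, 51.3 and 54.9 in GPx4+/- CNTL and 43.8, 39.8, 41.5, 45.3 and 41.8 in GPx4+/- HFHS mice. The summed level was lower on HFHS by a percent change of -13.9%, with no overlap (difference of mean log2 values -0.21, SE 0.058, exact permutation p = 0.00794). Rtl8c, whose sequence differs more, had log2 fold changes of 0.07 (SE 0.158) in WT and -0.15 (SE 0.133) in GPx4+/-, neither called by limma (adjusted p = 0.855 and 0.617). Of 14 listed Gag-derived genes 4 were tested, and apart from Rtl8a in WT, whose value the choice of Rtl8b fixes in part, 0 were called in any of the 3 comparisons.

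Frmpd3 lies on the X chromosome (140342263 to 140435467, plus strand) and was near the floor of what was tested, at 1.26 scaled TPM and the 3.4th percentile. In WT, CNTL mice had 0.792, 0.574, 0.737, 0.662 and 0.902 scaled TPM, and HFHS mice 1.58, 1.38, 1.60, 1.63 and 1.97. GPx4+/- CNTL mice had 0.986, 0.884, 1.16, 0.989 and 0.901, and GPx4+/- HFHS mice 1.24, 1.98, 1.41, 1.85 and 1.39. Every HFHS mouse was above every CNTL mouse of its genotype. In GPx4+/- the described log2 fold change was 0.47 (SE 0.126), and in a limma fit with no filter on low genes its adjusted p was 0.164. At this level the pseudocount of 0.5 shrinks the fold, the mean on HFHS being 60.2% above CNTL in GPx4+/- and 122% above it in WT.

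The Frmpd3 signal was almost wholly outside the protein-coding transcript. Frmpd3-201, a retained-intron model of 3141 bases, carried 86.7% of the TPM, a short processed transcript 12.9%, and the protein-coding Frmpd3-203 of 7314 bases 0.39%, or 0.00486 scaled TPM. Frmpd3-201 begins 39.7 kb downstream of the RefSeq start of the gene. Its share of Frmpd3 was 89.5 ± 10.2% in GPx4+/- CNTL and 84.2 ± 19.5% in GPx4+/- HFHS mice (SD, n = 5 each), a difference smaller than the spread (exact permutation p = 0.667). In WT it was 98.7 ± 1.39% and 85.4 ± 19.5%, given as a description. In single mice on HFHS the share was as low as 63.4% in WT and 52.1% in GPx4+/-. Almost no TPM was assigned to the transcript that encodes the scaffold protein. The Frmpd3 transcripts overlap on one strand, so this split of reads is also an estimate. Of 11 listed FERM and PDZ scaffold genes 6 were tested and 0 called in any of the 3 comparisons. Of the 6, 1 in WT and 3 in GPx4+/- had an unadjusted p under 0.05 for diet by limma, against 2003 and 1982 of all 11983 genes.

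**Figure D4:**
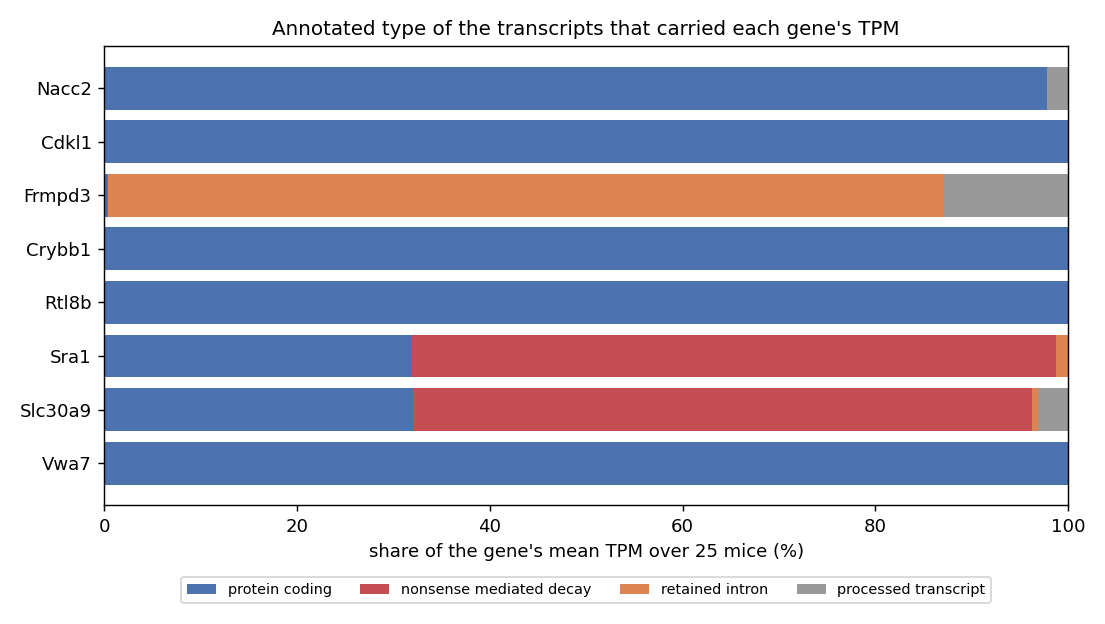
Percent of each gene's mean TPM over 25 mice (horizontal axis, 0 to 100) by the annotated type of transcript. Protein-coding transcripts carry 97.9% in Nacc2 and 100% in Cdkl1, Crybb1, Rtl8b and Vwa7, 32.1% in Slc30a9, 31.9% in Sra1 and 0.39% in Frmpd3.

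Slc30a9 lies on chromosome 5 (67306955 to 67358443, plus strand) and was the most abundant of the 8 genes, at 74.8 scaled TPM and the 91.6th percentile. GPx4+/- CNTL mice, part of the contrast that chose it, had 61.3, 66.9, 64.8, 62.4 and 69.5 scaled TPM and GPx4+/- HFHS mice 76.7, 84.9, 82.1, 81.6 and 86.0. WT CNTL mice had 74.3, 67.8, 65.7, 65.9 and 72.2, and WT HFHS mice 80.5, 74.3, 77.6, 79.3 and 78.0. In GPx4+/- the diets were apart, while in WT the lowest HFHS mouse lay just under the highest CNTL mouse. The WT means were 69.2 ± 3.86 and 77.9 ± 2.35 (SD, n = 5 each), 12.6% apart, with a log2 fold change of 0.17 (SE 0.047, adjusted p = 0.116 by limma, exact permutation p = 0.0159), so it did not pass in WT. The adjusted p ran from 0.0725 to 0.38 over 19 other settings. In GPx4+/- the described log2 fold change was 0.34.

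As with Sra1, transcripts annotated for nonsense-mediated decay carried most of the Slc30a9 TPM, 64.2% in 2 transcripts, of which Slc30a9-207 (3272 bases) held 41.0% of the gene. Protein-coding transcripts carried 32.1%, but 22.7% of the gene was Slc30a9-208, a fragment of 425 bases, and the 5711-base Slc30a9-204 held 8.64%. Another short transcript, Slc30a9-205 of 678 bases, made up 23.3% and is one of those annotated for decay. These transcripts too overlap on one strand, so the split of reads between them is an estimate. The share of Slc30a9-207 in WT was 42.4 ± 2.49% on CNTL and 40.9 ± 1.15% on HFHS (SD, n = 5 each, exact permutation p = 0.238). The difference was -1.59 percentage points, and without WT CNTL mouse 1 it was -2.66 (exact permutation p = 0.0159). Of 26 listed zinc transporters and metallothioneins 17 were tested and 0 were called in any of the 3 comparisons. Their log2 fold changes for diet ran from -0.30 (Slc39a6, a zinc importer) to 0.13 (Mt1, a zinc-binding metallothionein) in WT and from -0.21 (Slc39a13) to 0.21 (Slc39a14) in GPx4+/-. Of the 17, 2 in WT and 0 in GPx4+/- had an unadjusted p under 0.05 for diet by limma, against 2003 and 1982 of all 11983 genes.

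Vwa7 lies on chromosome 17 (35016579 to 35026741, plus strand). The GPx4+/- mice that chose it had 5.45, 6.29, 5.52, 5.87 and 5.89 scaled TPM on CNTL and 8.65, 8.07, 9.14, 9.07 and 7.80 on HFHS. WT CNTL mice had 6.00, 6.12, 7.24, 6.20 and 7.18, and WT HFHS mice 7.99, 8.66, 7.78, 7.82 and 9.74. The diets did not overlap in either genotype. In WT the mean was 28.3% higher on HFHS, with a log2 fold change of 0.34 (SE 0.080, adjusted p = 0.0858 by limma, exact permutation p = 0.00794), so it did not pass over all genes. The adjusted p ran from 0.0266 to 0.279 over 19 other settings and was under 0.05 in 1. Vwa7-201 carried 97.9% of the TPM, and 12.7% of the gene's exon bases lie across from exons of Sapcd1 on the other strand, which was at 0.680 scaled TPM.

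Among 17 listed von Willebrand factor A domain genes 11 were tested and Vwa8, a mitochondrial ATPase, was the single call. It had 67.1 to 79.7 scaled TPM in WT CNTL, 88.6 to 103 in WT HFHS, 62.1 to 84.8 in GPx4+/- CNTL and 88.0 to 112 in GPx4+/- HFHS mice. Vwa8 rose on HFHS in WT (log2 fold change 0.43, SE 0.057, adjusted p = 0.0182 by limma) and in GPx4+/- (0.49, SE 0.087, adjusted p = 0.0307 by limma). The median log2 fold change of the list was 0.33 in WT and 0.21 in GPx4+/-, against 0.00 and -0.002 over all genes, and 4 of the 11 had an unadjusted p under 0.05 in each genotype, as did 2003 of all 11983 genes in WT and 1982 in GPx4+/-.

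Nacc2 lies on chromosome 2 (26055535 to 26123220, minus strand) and averaged 9.57 scaled TPM, 95.9% of it in Nacc2-201. Its levels were tight on chow. WT CNTL mice had 7.94, 7.49, 8.10, 7.85 and 7.51 scaled TPM and GPx4+/- CNTL mice 7.69, 7.86, 7.87, 7.06 and 8.04. On HFHS, WT mice had 9.96, 10.7, 10.6, 11.9 and 10.1, and GPx4+/- mice 11.8, 9.11, 11.8, 10.4 and 12.3. All 10 CNTL mice lay below all 10 HFHS mice. The described ratio of means was 1.37 in WT and 1.44 in GPx4+/-. The diet difference in GPx4+/- minus that in WT, which did not enter the choice of Nacc2, was 0.06 on the log2 scale (95% interval -0.14 to 0.27, adjusted p = 0.909 by limma), in a comparison where 0.0% of all genes were called and 856 had an unadjusted p under 0.05. Of 18 listed NuRD components, NAC proteins and p53 pathway genes, all tested, 0 were called in any of the 3 comparisons. Of the 18, 2 in WT and 5 in GPx4+/- had an unadjusted p under 0.05 for diet by limma, against 2003 and 1982 of all 11983 genes. Mdm2, the p53 regulator that Nacc2 is known to repress, had log2 fold changes of 0.09 (SE 0.062, adjusted p = 0.51) in WT and 0.21 (SE 0.049, adjusted p = 0.0688) in GPx4+/- by limma.

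Cdkl1 lies on chromosome 12 (69746848 to 69791267, minus strand), and Cdkl1-201 carried 99.9% of its TPM. Of the 3 genes lower on HFHS it had the widest difference, which is part of what chose it. Levels on chow in WT were 7.27, 10.6, 7.14, 9.13 and 8.96 scaled TPM, and on HFHS they were 5.45, 4.71, 3.96, 2.88 and 4.69. GPx4+/- CNTL mice had 7.88, 8.63, 6.74, 10.2 and 9.85, and GPx4+/- HFHS mice 4.46, 4.41, 4.42, 4.61 and 4.93. Each HFHS mouse was below each CNTL mouse, and the spread was narrowest in GPx4+/- HFHS, with a coefficient of variation of 4.7% against 16.5 to 22.4% in the other 4 groups. The percent change of the mean on HFHS was -49.7% in WT and -47.3% in GPx4+/-. Of 14 listed relatives and ciliary genes, 11 were tested and 0 were called in any of the 3 comparisons. Their log2 fold changes for diet ran from -0.22 (Arl13b, a ciliary GTPase) to 0.19 (Cdk20) in WT and from -0.37 (Cdk20) to 0.14 (Ift20) in GPx4+/-. Of the 11, 0 in WT and 1 in GPx4+/- had an unadjusted p under 0.05 for diet by limma, against 2003 and 1982 of all 11983 genes.

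**Figure D5:**
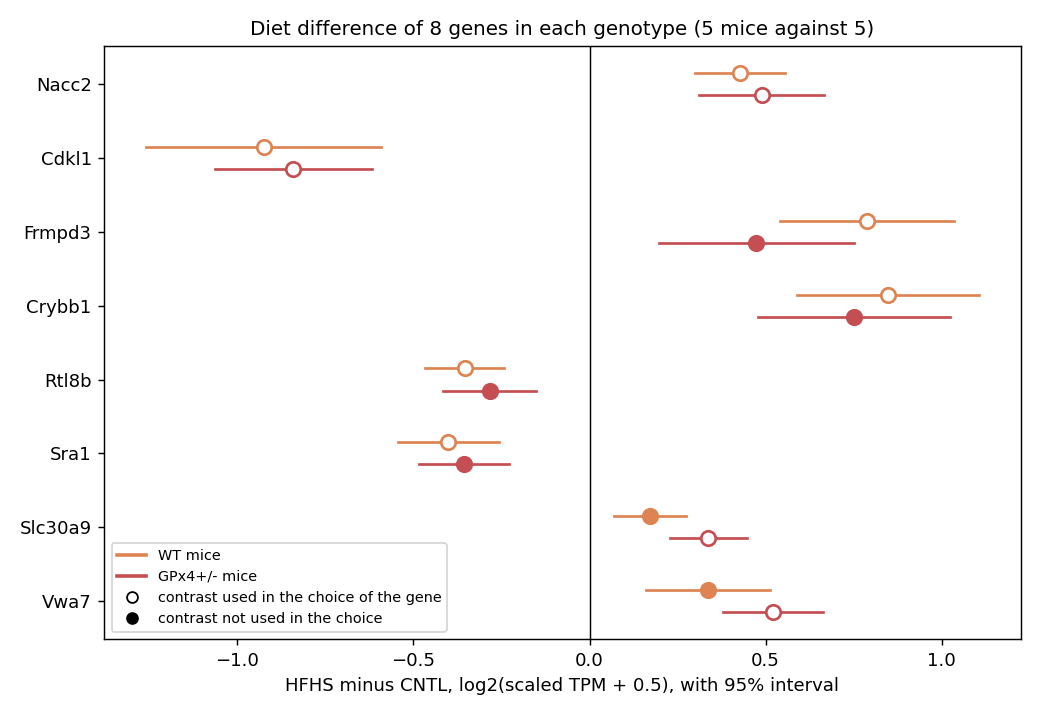
HFHS minus CNTL on the log2(scaled TPM + 0.5) scale (horizontal axis) for each gene, in WT and GPx4+/- mice, with 95% intervals from limma on 5 mice against 5. Open points are contrasts used in the choice of the gene and filled points are not, although Frmpd3 passed the filter through its HFHS levels. The filled points run from -0.36 for Sra1 to 0.75 for Crybb1.

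The start regions of Nacc2 and Cdkl1 are shown because these were the members chosen on both genotypes together. Nacc2 (chr2:26122762-26123061, minus strand) has 71.0% G + C and one GC box, and Cdkl1 (chr12:69790658-69790957, minus strand) has 64.7% and 3 GC boxes, which begin 51, 44 and 36 bases before its start.
Nacc2 promoter: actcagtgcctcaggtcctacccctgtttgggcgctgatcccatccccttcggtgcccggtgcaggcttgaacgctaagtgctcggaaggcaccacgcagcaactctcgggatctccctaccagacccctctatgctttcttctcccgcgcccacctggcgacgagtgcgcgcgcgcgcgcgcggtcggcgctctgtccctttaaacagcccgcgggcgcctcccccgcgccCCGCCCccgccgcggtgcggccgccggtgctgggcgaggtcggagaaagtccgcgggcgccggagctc
Cdkl1 promoter: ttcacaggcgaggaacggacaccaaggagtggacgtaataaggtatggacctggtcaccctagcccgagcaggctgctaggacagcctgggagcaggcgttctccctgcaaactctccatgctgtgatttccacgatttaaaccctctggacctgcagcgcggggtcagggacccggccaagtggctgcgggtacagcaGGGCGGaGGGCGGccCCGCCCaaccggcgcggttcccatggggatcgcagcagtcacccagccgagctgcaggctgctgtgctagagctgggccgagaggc

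RefSeq start regions of 300 bases were given for 7 of the 8 genes, all but Sra1, and were searched on both strands for 6 motifs, with one region per gene, the nearest to its leading transcript. The GC box GGGCGG was in 4 of the 7 (Nacc2, Cdkl1, Slc30a9 and Vwa7) and in 35.7% of 32851 promoters. The CCAAT box was in 2 (Crybb1 and Rtl8b) against 37.4%, and TATAAA was in 1 (Crybb1) against 13.6%. A second Nacc2 start region, downstream of the first (chr2:26092347-26092646, minus strand), was not counted and holds CCAAT. The nuclear receptor half-site AGGTCA was in 1 (Vwa7) against 16.3%, and it is contained in the longer estrogen-related receptor element TCAAGGTCA, which was in 0 against 0.4%. The E-box CACGTG was in 0 against 7.2%. No motif was common to the genes that were higher or to those that were lower, and a match describes only these letters.

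Between genotypes none of the 8 genes was called, in a comparison that called 0.0584% of all genes. The log2 fold changes of GPx4+/- against WT over both diets ran from -0.08 (Sra1, 95% interval -0.17 to 0.02) to 0.11 (Frmpd3, -0.06 to 0.28), and the smallest unadjusted p by limma was 0.10, for Sra1. For Cdkl1 the interval was -0.15 to 0.25, for Crybb1 -0.09 to 0.28 and for Nacc2 -0.09 to 0.12. It was -0.13 to 0.02 for Rtl8b, -0.07 to 0.06 for Slc30a9 and -0.17 to 0.04 for Vwa7.

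The WT HFHS mice with and without carnosine overlapped for 8 of 8 genes, where 0.609% of all genes did not overlap and 0.0% were called by limma (504 had an unadjusted p under 0.05). Slc30a9 and Vwa7, whose differences in WT did not choose them, can be tested. Slc30a9 had 79.3, 80.1, 80.7, 74.6 and 82.3 scaled TPM in WT HFHS + Carnosine mice, a log2 fold change against WT HFHS of 0.03 (95% interval -0.07 to 0.12, adjusted p = 0.96 by limma, exact permutation p = 0.389). Vwa7 had 7.96, 7.16, 8.15, 9.60 and 7.36, a log2 fold change of -0.06 (95% interval -0.25 to 0.13, adjusted p = 0.96 by limma, exact permutation p = 0.532). For the other 6 the values are descriptions. Nacc2 averaged 10.6 ± 0.821 with carnosine and 10.6 ± 0.771 without, Cdkl1 4.66 ± 0.900 and 4.34 ± 0.973, and Sra1 35.7 ± 4.54 and 35.9 ± 2.47 (scaled TPM, SD, n = 5 each). Rtl8b averaged 21.2 ± 2.00 and 20.6 ± 0.993 and Crybb1 4.32 ± 1.16 and 4.48 ± 0.338. Frmpd3 stood lowest relative to WT HFHS, at 1.35 ± 0.331 against 1.63 ± 0.213, and 3 of its 5 carnosine mice (1.11, 1.22 and 1.03) lay below every WT HFHS mouse.

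Against WT CNTL, which shares those mice with the diet comparison, the carnosine-fed HFHS mice did not overlap for 1 of the 2 genes chosen on GPx4+/- differences, where 3.26% of all genes did not overlap and 0.234% were called. Over all 8 the count was 7, from which nothing is read. Slc30a9 was 14.8% higher (log2 fold change 0.20, SE 0.049, adjusted p = 0.121 by limma, exact permutation p = 0.00794). Vwa7 was 22.9% higher with overlap (0.28, SE 0.087, adjusted p = 0.215 by limma, exact permutation p = 0.0238). Neither was called. The adjusted p of Slc30a9 ran from 0.0274, with all 5 groups in the fit, to 0.357 over 19 other settings, and that of Vwa7 from 0.0815 to 0.422. The described log2 fold changes of the other 6 ran from -0.83 for Cdkl1 to 0.77 for Crybb1.

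For each gene the other tested genes with the nearest pattern over the 25 mice were found by Pearson correlation of log2 levels. These mice share diets and groups, so the correlation is given again with group means removed. Rtl8b and Sra1, both lower on HFHS, were each other's nearest gene, with r of 0.89 over the mice and 0.54 within groups, and Sra1 was also the second nearest to Cdkl1 (0.88 and 0.57). Doc2g was nearest to Cdkl1 (0.89 and 0.64) and Akt1, the kinase of insulin signalling, was second to Sra1 (0.89 and 0.74). Dbi, the acyl-CoA binding protein, was nearest to Crybb1 (0.88 and 0.54), followed by Igsf1 (0.88 and 0.52). Sirpa and Dhdds, the latter a subunit of dolichol synthesis, were nearest to Nacc2 (0.89 and 0.88 over the mice, 0.57 and 0.42 within groups). Ppt1, a lysosomal thioesterase, and Kcnj14, a potassium channel, were nearest to Frmpd3 (0.82 and 0.82, with 0.61 and 0.48 within groups). Atf6, a sensor of endoplasmic reticulum stress, and Slc35f5 were nearest to Slc30a9 (0.88 and 0.86, with 0.41 and 0.53), and Rab11fip3 and the microtubule protein Map4 to Vwa7 (0.88 and 0.86, with 0.52 and 0.47). Armcx4 was second to Rtl8b (0.85 and 0.57). Among the 8 genes themselves, the 28 pairwise correlations with group means removed ran from -0.53 to 0.57 with a median of 0.01.

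Of the 16 tested genes that flank the 8 on the chromosome, Cryba4 was called for diet in WT by limma, Rtl8a in WT is a description as given above, and the other 14 were called in neither genotype. The nearest to Sra1, 0.34 kb away, was Apbb3, with log2 fold changes of -0.19 (SE 0.120, adjusted p = 0.45) in WT and -0.26 (SE 0.158, adjusted p = 0.446) in GPx4+/- by limma. Vars, 0.26 kb from Vwa7, had 0.04 (SE 0.078, adjusted p = 0.823) and -0.17 (SE 0.107, adjusted p = 0.468). Exons of Nacc2 and Cdkl1 overlap non-coding genes on the opposite strand over 6.1% and 20.4% of their exon bases (Gm13554 and 4930512B01Rik), which were not analysed here. The library kit keeps strand, but the strand setting of the quantification is not given in the sources used here.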

How the data were processed

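Left ventricular polyA RNA of 25 mice was sequenced with a stranded kit. The authors deposited TPM for each of 119215 transcripts and each library. The submitters' processing notes name kallisto 0.43.1, sleuth 0.30.0 and GRCm38, whereas the study's methods describe gene counts, which were not used here. TPM keeps no read depth, so no counting error is given. Columns were matched to samples by library name, because column positions stated in the labels disagree with the header. Transcripts found in GENCODE M21 (116772) were summed by gene, scaled by median ratios over 11879 genes (0.865 to 1.158) and put on the log2 scale after adding 0.5. Mitochondrial transcripts took 31.3 to 48.7% of a library, and 11652 to 12305 genes reached 1 TPM.

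The 11983 genes whose scaled level averaged 1 TPM or more entered limma 3.58.1 in R 4.3.3 (trended empirical Bayes, Benjamini-Hochberg over all genes), each diet or carnosine contrast on its 10 mice and the genotype and interaction on 20. Single values had two-sided exact permutation tests, and the code was tested on simulated data. Nothing says whether mice shared a cage or batch. Sequences came from RefSeq (GRCm38.p6) and GENCODE M21 and were aligned with blastn 2.17.0.

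The members, family lists and marker lists were chosen with earlier results of these data known. Besides the 8, the text names Gpx4, the 2 genes most correlated with each, flanking and exon-overlapping genes, called genes of the family lists and the genes ranked 5 and 6. Cryab, Mdm2, Rtl8c, the genes at the ends of list ranges, Vars and Apbb3 among the flanking genes, and the sum of Rtl8a and Rtl8b were picked after their values were seen. Alternatives covered the pseudocount (0.1), the filter (none, or 5 TPM), the scaling, the replicate block, more groups in one fit, and leaving out each mouse or the 6 mice with high markers of other tissue.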

Additional observations from a re-analysis of the deposited data

How the results depend on the processing

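The diet differences of the 8 genes in WT and GPx4+/- (16 in all) had the other sign in 0 of 300 values under the alternatives, which their choice fixes in part. The genes called for diet in GPx4+/- (124, 81 of them higher) came to 30 without the filter, 75 after rescaling without mitochondrial transcripts (38 higher and 37 lower), 400 with 4 groups in the fit and 8 without the 6 mice, and to 18 (without GPx4+/- HFHS mouse 5) to 129 with one mouse left out. In WT (74, 37 higher and 37 lower) they came to 33, 25 with TPM as deposited (17 higher and 8 lower), 142 and 154, and to 3 (without WT CNTL mouse 4) to 171 (without WT CNTL mouse 3) with one mouse left out; rescaling without mitochondrial transcripts gave 22 higher and 59 lower. TPM as deposited shifted the median of all genes by -0.10 in GPx4+/- and gave 18 higher and 126 lower calls. HFHS + Carnosine against CNTL (28, 22 higher and 6 lower) came to 0 without the filter, 51 with quantile normalization, 141 with all 5 groups in the fit and 4 to 78 with one mouse left out, with 15 higher and 14 lower for TPM as deposited and 17 higher and 23 lower without mitochondrial transcripts. Genotype calls (7) fell to 4 at a minimum of 5 TPM and were 7 to 7 with one mouse left out. Replicate numbers did not pair the mice (correlations of deviations from -0.341 to 0.232), and with the replicate block the calls were 3 for diet in GPx4+/-, 1 in WT and 0 for HFHS + Carnosine against CNTL, with adjusted p by limma of 0.0669 for Crybb1 and 0.0743 for Sra1 in GPx4+/-. The causes were not tested. These differences changed sign. The Nacc2 interaction was -0.043 with TPM as deposited (0.02 to 0.13 with one mouse left out). Genotype differences were -0.027 for Cdkl1 without the 6 mice (-0.013 to 0.09 with one left out), -0.002 for Nacc2 as deposited (-0.002 to 0.05), and 0.011 with quantile normalization and 0.004 without mitochondrial transcripts for Slc30a9 (-0.018 to 0.007). The carnosine difference of Slc30a9 was -0.045 as deposited, and the HFHS minus CNTL difference in the share of Frmpd3-201 in GPx4+/- went from -5.28 points to between -9.12 and 2.73 (without GPx4+/- HFHS mouse 2) with one mouse left out. Among the described carnosine differences, that of Cdkl1 went from 0.10 to -0.023 without WT HFHS mouse 4 and that of Rtl8b from 0.04 to -0.031 as deposited, and those of Nacc2 (-0.001) and Sra1 (-0.015) reached 0.038 and 0.042. TPM gives no depth, so no limit of detection can be given.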
